A study of Homo sapiens with 12 samples.

Results

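The 51 genes described here are factors of ribosome biogenesis together with a few growth genes that are known targets of the transcription factor MYC. They were chosen by name, and all 51 were found among the 29607 genes of the deposited expression table. The table gives TPM (an abundance of transcripts, corrected for their length and with a constant sum per library) for 12 RNA-seq libraries of KMS11, a human multiple myeloma cell line, in 6 groups of 2. A floor of 1 TPM in 2 or more libraries left 12731 genes to test, and all 51 of the list passed it.

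The study altered STK17B, a serine/threonine kinase. The inhibitor group received an STK17B inhibitor that the labels do not name and for which they give no dose or time; by the design text its cells carried a control hairpin. The sh2 and sh1 groups each carried a different short hairpin RNA against STK17B, and the overexpression group carried a vector with the STK17B cDNA. Vector cells carried the control vector and shControl cells the control hairpin, and every group except inhibitor is labelled as untreated and came from the same line. The promoters that drive the hairpins and the cDNA are not given in the sources used here. A group treated with vehicle is named in the design text, but no library is labelled as one. An effect of the inhibitor and an effect of its solvent therefore cannot be told apart. The control columns of the table carry only library numbers, and matching these to shControl and Vector through the numbers in the labels is an inference, so changes are also given against the other control where that matters.

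Ribosome assembly starts in the nucleolus, where RNA polymerase I transcribes the ribosomal RNA precursor. Small nucleolar ribonucleoproteins (snoRNPs) guide its chemical modification, a large complex called the small subunit processome folds and cuts the part that becomes the small (40S) subunit, and other factors build the large (60S) subunit. Many of these genes are direct targets of MYC, as are genes of polyamine and nucleotide synthesis, and MYC is often deregulated in multiple myeloma, a cancer of antibody-secreting plasma cells.

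STK17B itself stood at 23.7 ± 1.79 TPM in inhibitor cells, 14.6 ± 0.14 TPM in sh2, 11.8 ± 1.26 TPM in sh1, 89.3 ± 6.79 TPM with overexpression, 29.8 ± 2.33 TPM in Vector and 27.3 ± 0.24 TPM in shControl (mean ± SD, n = 2 each). Its change was -0.998 ± 0.073 (SE, adjusted p = 6.99e-06) on the log2(TPM + 1) scale for the mean of both hairpins against shControl and 1.55 ± 0.084 (SE, adjusted p = 2.41e-06) for overexpression against Vector, while -0.20 ± 0.084 (SE, adjusted p = 0.0902) for inhibitor against shControl did not pass the test. Between 11672 and 12353 genes reached 1 TPM in a library; TPM keep no read depth, so no counting error is given. Plasma cell markers were present, with XBP1 at 824 to 1280 TPM and TNFRSF17 at 151 to 299 TPM, and the T cell markers CD3D and CD3G were at 0 in all 12 libraries, although CD7 reached 139 to 442 TPM and CD38 stayed at 0.13 to 1.47 TPM. Summed over 10 plasma cell markers, the level was 4977 to 5244 TPM in inhibitor cells, 6070.5 to 6182 TPM in sh2, 5449 to 5725 TPM in sh1, 7366 to 7669 TPM with overexpression, 7136 to 7654 TPM in Vector and 7222 to 7245 TPM in shControl. Of these markers, 9 fell and 1 rose with the inhibitor, 9 fell with the hairpins, and 7 fell and 1 rose with overexpression. Of 8 T and NK cell markers, CD3E and CD7 passed the floor and rose in each of the inhibitor, hairpin and overexpression comparisons, and the summed level of the 8 was 227 to 241 TPM in inhibitor cells, 220.4 TPM in sh2, 244 to 259 TPM in sh1, 417 to 450.4 TPM with overexpression, 222 to 235 TPM in Vector and 143 TPM in shControl. The part of either list in the members' changes was not tested. All log2 changes below are on the log2(TPM + 1) scale and come from limma fitted to all 6 groups, with p-values adjusted by the Benjamini-Hochberg method over the 12731 genes and a threshold of 0.05. The labels do not say whether the 2 libraries of a group came from separate cultures, so the p-values measure the spread between these libraries, which may be technical.

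In shControl cells the list spanned NPM1 (nucleophosmin, an abundant nucleolar histone and ribosome chaperone) at 1378 ± 43.0 TPM down to PWP2 (a small subunit processome protein) at 4.78 ± 0.33 TPM. NPM1 was followed by NME1 (a nucleoside diphosphate kinase) at 1166 ± 29.8 TPM, NCL (nucleolin) at 1013 ± 2.14 TPM, FBL (fibrillarin, the methyltransferase of box C/D snoRNPs) at 904 ± 16.6 TPM and SRM (spermidine synthase) at 751 ± 11.2 TPM. These 5 were the members at or above 500 TPM. Of the 51, 20 reached 100 TPM and 49 reached 10 TPM; nucleolar scaffold, snoRNP and metabolic genes headed the order, and the processome genes UTP20, UTP15 and PWP2 closed it. NME1 shares sequence with NME2 (1692 to 2221 TPM) and with the read-through gene NME1-NME2 (8.86 to 18.1 TPM), and PPAN with PPAN-P2RY11 (0 to 0.83 TPM), so the split of reads among them is uncertain.

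MYC and MAX bind DNA at the E-box CACGTG, so the promoters of the members were searched for these letters. The sequence reads the same on both strands, so a single search covers both. RefSeq promoters on GRCh38.p14 (300 bases, 250 before and 50 after the transcript start) were found for 43 of the 51 genes, and 16 of them held the motif, or 37.2%, beside 10.7% of 8955 promoters of tested genes and 7.43% of all 27305 promoters. The 4 promoters printed here are those of the members with the largest difference between inhibitor and hairpin cells among these 16, and capitals mark the motif. They belong to UTP20 (chr12:101279855-101280154, plus strand, where the motif starts 10 bases before the transcript start), RRP9 (chr3:51941855-51942154, minus strand, 5 bases before), SRM (chr1:11059969-11060268, minus strand, 199 bases before) and BYSL (chr6:41921249-41921548, plus strand, 29 bases after).
UTP20: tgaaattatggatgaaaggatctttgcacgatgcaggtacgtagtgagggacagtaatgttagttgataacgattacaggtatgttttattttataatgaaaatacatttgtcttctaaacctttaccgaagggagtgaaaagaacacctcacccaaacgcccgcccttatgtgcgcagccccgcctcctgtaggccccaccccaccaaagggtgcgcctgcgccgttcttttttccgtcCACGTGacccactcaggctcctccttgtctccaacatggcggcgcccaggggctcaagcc
RRP9: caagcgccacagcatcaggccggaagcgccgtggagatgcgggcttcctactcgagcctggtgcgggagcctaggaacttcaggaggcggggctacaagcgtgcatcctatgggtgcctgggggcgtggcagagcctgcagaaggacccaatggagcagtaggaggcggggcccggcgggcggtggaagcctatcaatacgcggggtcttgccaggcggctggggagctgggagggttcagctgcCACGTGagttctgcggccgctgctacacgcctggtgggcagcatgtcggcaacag
SRM: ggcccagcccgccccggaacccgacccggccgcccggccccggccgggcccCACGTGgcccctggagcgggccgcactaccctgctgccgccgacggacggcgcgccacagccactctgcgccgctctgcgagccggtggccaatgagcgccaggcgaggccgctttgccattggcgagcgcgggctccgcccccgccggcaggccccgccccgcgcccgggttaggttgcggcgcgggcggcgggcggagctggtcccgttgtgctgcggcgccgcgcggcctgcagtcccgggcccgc
BYSL: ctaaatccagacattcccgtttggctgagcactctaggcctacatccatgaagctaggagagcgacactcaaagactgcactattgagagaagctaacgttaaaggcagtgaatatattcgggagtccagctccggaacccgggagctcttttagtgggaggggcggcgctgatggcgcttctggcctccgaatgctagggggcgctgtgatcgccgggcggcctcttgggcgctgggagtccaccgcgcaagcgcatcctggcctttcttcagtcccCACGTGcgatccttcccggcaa

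As a group, the list was highest in inhibitor cells and lowest with overexpression. Its summed level was 10608 ± 145 TPM in inhibitor cells, 8041 ± 32.6 TPM in sh2, 7605 ± 58.7 TPM in sh1, 7006 ± 34.6 TPM with overexpression, 8048 ± 42.2 TPM in Vector and 9284 ± 35.2 TPM in shControl (mean ± SD, n = 2 each). The inhibitor sum was therefore 1.14 times that of shControl and 1.36 times that of the hairpin groups, the hairpin sum 0.843 times that of shControl, and the overexpression sum 0.871 times that of Vector. The inhibitor group had the highest mean of the 6 groups for 48 members and shControl for the other 3 (FBL, BOP1 and TCOF1). The lowest mean fell in overexpression for 35 members, in sh1 for 15 and in sh2 for 1. In bulk RNA a smaller share of cells that express a gene and less RNA per cell cannot be told apart.

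**Figure D1:**
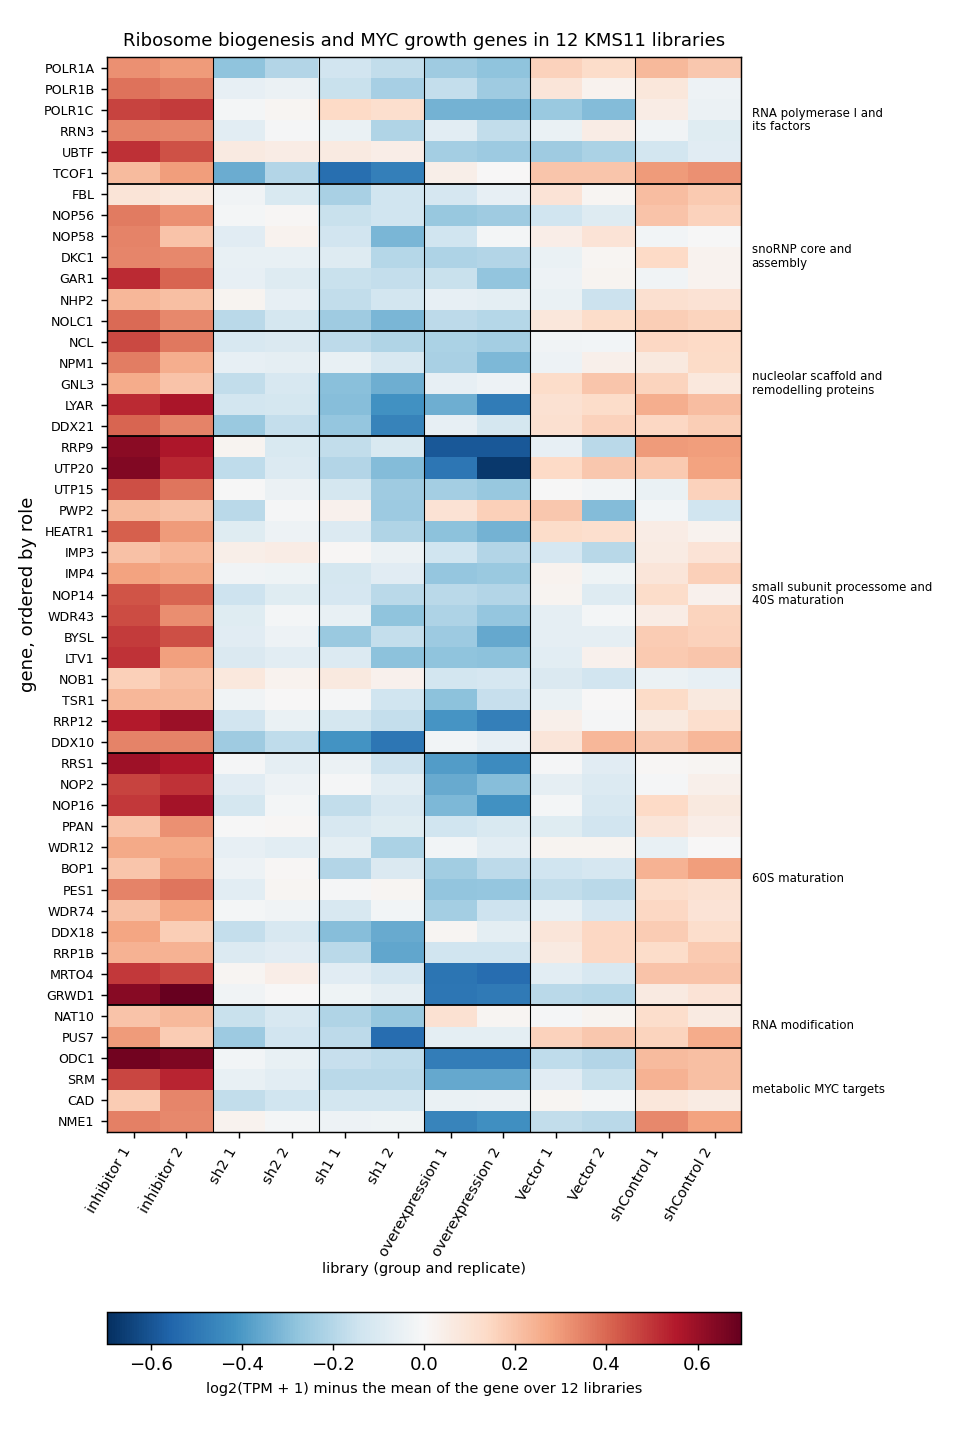
Level of each of the 51 genes (vertical axis, ordered by role) in each of the 12 libraries (horizontal axis), drawn as log2(TPM + 1) minus the mean of that gene over the 12 libraries; red is higher and blue lower. Both inhibitor libraries are red across nearly all genes, the overexpression libraries are blue for most of them, and the hairpin libraries lie between, below shControl.

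The 2 controls also differed in this list, and that difference has the size of some of the changes. In Vector against shControl, 19 members were lower and 0 higher, against 7.86% lower and 21.4% higher among all 12731 genes; limma gave 25 members lower and 0 higher at an unadjusted p under 0.05. The median member change was -0.11, against 0.085 for all genes. With median-of-ratios scaling 38 members were lower, and 1648 of all genes were higher and 2196 lower, against 2723 and 1001 as reported. Both Vector libraries lay below both shControl libraries for 36 members and above them for 3, beside 20% and 48.5% of all genes. NME1 (-0.49), RRP9 (-0.42), ODC1 (-0.40), BOP1 (-0.40) and SRM (-0.34) had the largest differences between the controls.

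With the inhibitor, 37 of the 51 genes rose against shControl and 0 fell, beside 28% higher and 11.8% lower among all genes. The median member change was 0.25, against 0.079 over all genes, and FBL was the single gene lower at an unadjusted p under 0.05 in limma. Both inhibitor libraries were above both shControl libraries for 46 members and below them for 2, beside 48.3% and 22.8% of all genes. Against Vector, 44 members were higher and 0 lower, beside 26% higher and 27% lower among all genes, and 36 of the 37 were higher against both controls.

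With the hairpins, 39 of the 51 genes fell and 2 rose against shControl, beside 20.2% lower and 26.2% higher among all genes; with median-of-ratios or quantile scaling more genes were lower than higher among all genes, by 3118 to 2964 and 3159 to 2879. The median member change was -0.21, against 0.029 over all genes, and all 4 hairpin libraries lay below both shControl libraries for 43 members and above them for 2, beside 25.4% and 32.5% of all genes. Set against shControl a hairpin at a time, sh2 gave 33 lower and 2 higher (13.4% and 22% of all genes) and sh1 gave 42 lower and 3 higher (21.3% and 23.7%). The call depends on the control: against Vector 20 members were lower and 8 higher, beside 29.4% and 18.6% of all genes, and the median was -0.081, beside -0.052 over all genes. Of the 39, 18 were lower against both controls and 4 (PES1, GRWD1, ODC1 and NME1) were called higher against Vector. The hairpin and inhibitor comparisons share the shControl libraries.

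With overexpression, 34 of the 51 genes fell against Vector and 0 rose, beside 10.3% lower and 26.6% higher among all genes. limma gave 38 members lower and 0 higher at an unadjusted p under 0.05. The median member change was -0.21, against 0.081 over all genes, and both overexpression libraries lay below both Vector libraries for 44 members and above them for 0, beside 22.1% and 47.2% of all genes. All 34 were also lower against shControl, where 44 members were lower and 0 higher, beside 13.7% lower and 44.9% higher among all genes. Leaving out Vector replicate 2 reduced the 34 calls to 24, the lowest count with any library left out.

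**Figure D2:**
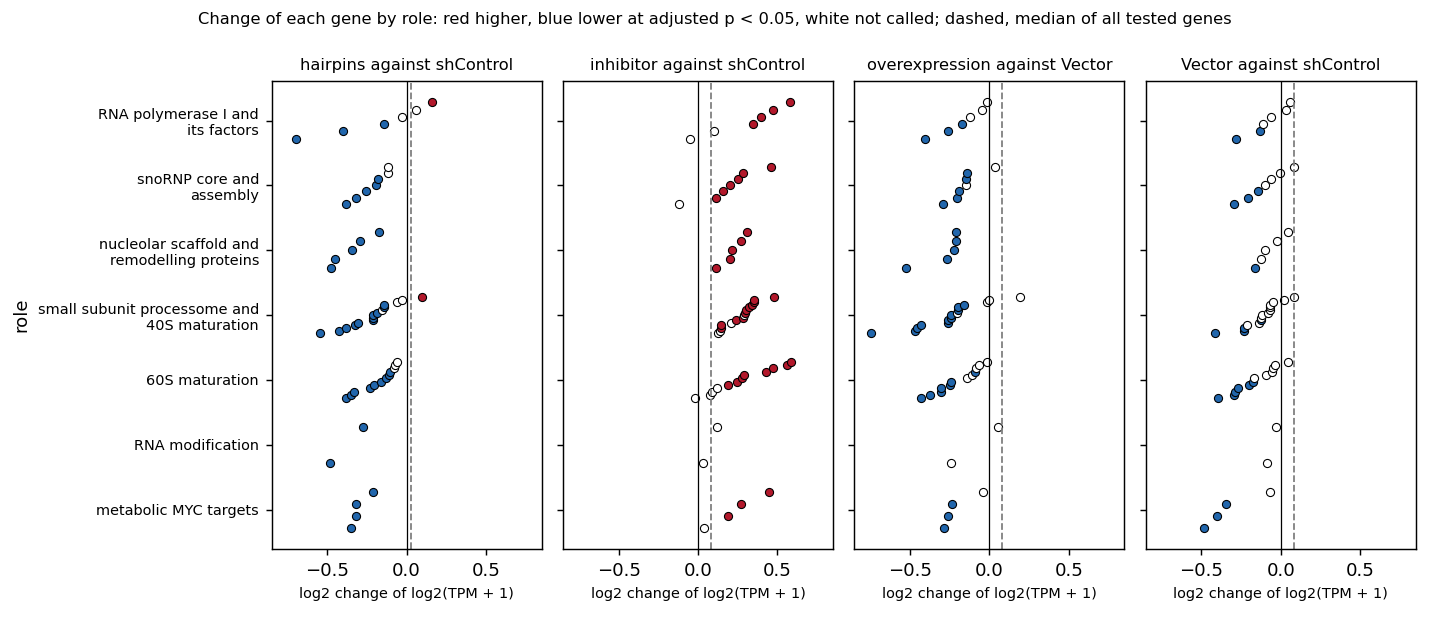
Change of each gene on the log2(TPM + 1) scale (horizontal axis) by role (vertical axis) in 4 comparisons, with filled points past adjusted p < 0.05 (red higher, blue lower), white points not called and the dashed line at the median of all tested genes. In the hairpin and overexpression panels most points lie left of 0, in the inhibitor panel most lie right of it, and the Vector panel shows 19 blue points.

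Among the 6 genes of RNA polymerase I transcription, 4 rose with the inhibitor, 3 fell and 1 rose with the hairpins, and 3 fell with overexpression. UBTF, the upstream binding factor that keeps ribosomal DNA open, was read at 139 and 133 TPM in the inhibitor libraries, 102 and 101 TPM in sh2, 102 and 100.5 TPM in sh1, 82.5 and 81.5 TPM with overexpression, 82.0 and 83.5 TPM in Vector and 88.9 and 92.2 TPM in shControl. Its inhibitor libraries stood above all others and its hairpin libraries above both kinds of control. The change was 0.58 ± 0.033 (SE, adjusted p = 2.63e-06) with the inhibitor and 0.16 ± 0.028 (SE, adjusted p = 0.00145) with the hairpins. With overexpression -0.012 ± 0.033 (SE, adjusted p = 0.798) did not pass. That change was -0.12 with median-of-ratios scaling, -0.10 with quantile scaling and -0.14 against shControl, each called lower. POLR1C, a subunit that RNA polymerases I and III share, rose by 0.47 with the inhibitor, as did RRN3, the initiation factor that brings the polymerase to the promoter (0.40), and POLR1B, the second-largest subunit (0.35). POLR1A, the largest subunit, gave other calls: 0.10 with the inhibitor was not called, while it fell by 0.40 on the log2 scale with the hairpins and by 0.41 with overexpression. Against Vector its inhibitor change was 0.16 and called higher.

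TCOF1, whose product treacle works in the transcription and processing of ribosomal RNA, had the largest fall with the hairpins. It was read at 47.3 and 49.8 TPM in the inhibitor libraries, 31.7 and 35.0 TPM in sh2, 27.8 and 28.8 TPM in sh1, 41.6 and 40.6 TPM with overexpression, 46.4 and 46.4 TPM in Vector and 49.9 and 50.8 TPM in shControl. All 4 hairpin libraries were below every other library, and the inhibitor libraries lay just below those of shControl. The change was -0.69 ± 0.043 (SE, adjusted p = 2.65e-06) with the hairpins, and against Vector it was -0.58. The inhibitor change of -0.050 was not called. With overexpression it was -0.17 ± 0.050 (SE, adjusted p = 0.0228), a call that was lost when any of the 4 libraries compared was left out.

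Among the 7 snoRNP genes, 6 rose with the inhibitor, and 5 fell in each of the hairpin and overexpression comparisons. GAR1, a core protein of the box H/ACA particles that carry out pseudouridylation, rose most with the inhibitor (0.46), beside -0.12 with the hairpins, which was not called. DKC1, the pseudouridine synthase of the same particles, rose by 0.25 with the inhibitor and fell by 0.18 with the hairpins and 0.19 with overexpression; against Vector its hairpin change was -0.081 and not called. NOLC1, a chaperone of snoRNPs, fell most in both the hairpin (-0.38) and the overexpression comparison (-0.29). FBL did not rise with the inhibitor, at -0.12 ± 0.042 (SE, adjusted p = 0.0504).

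NOP56, a scaffold of the box C/D particles, was read at 277 and 269 TPM in the inhibitor libraries, 214 and 217 TPM in sh2, 193 and 196 TPM in sh1, 179 and 182 TPM with overexpression, 195 and 202 TPM in Vector and 247 and 241 TPM in shControl. The inhibitor libraries were highest, the sh2 libraries lay between shControl and Vector, and the sh1 libraries overlapped those of Vector. Its change was 0.16 ± 0.028 (SE, adjusted p = 0.00196) with the inhibitor, -0.25 ± 0.025 (SE, adjusted p = 3.71e-05) with the hairpins and -0.14 ± 0.028 (SE, adjusted p = 0.0044) with overexpression. Against Vector the hairpin change was 0.041 and was not called. NOP58, its partner in the particle, rose by 0.28 with the inhibitor and passed in neither the hairpin (-0.12) nor the overexpression comparison (-0.15). Against Vector the hairpin change of NOP58 was -0.20 and called lower.

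All 5 nucleolar scaffold and remodelling genes rose with the inhibitor, fell with the hairpins and fell with overexpression. The rise of GNL3 with the inhibitor was 0.12, and its call did not hold in 11 alternative settings. Against Vector that change was 0.067 and not called. LYAR, a nucleolar zinc finger protein tied to cell growth, changed most of the 5 in each comparison. It was read at 70.8 and 73.3 TPM in the inhibitor libraries, 44.9 and 44.9 TPM in sh2, 39.9 and 36.4 TPM in sh1, 38.6 and 34.8 TPM with overexpression, 52.8 and 53.6 TPM in Vector and 58.8 and 57.2 TPM in shControl. The inhibitor libraries were above all others, and all hairpin and overexpression libraries were below both kinds of control. The change was 0.31 ± 0.056 (SE, adjusted p = 0.0022) with the inhibitor, -0.48 ± 0.048 (SE, adjusted p = 4.86e-05) with the hairpins and -0.53 ± 0.056 (SE, adjusted p = 1.24e-04) with overexpression, and against Vector the hairpin change was -0.36 and still called. NCL, which binds ribosomal RNA, had 0.27, -0.30 and -0.21 in the same order. For NPM1 the values were 0.20, -0.17 and -0.27, and its hairpin change against Vector was -0.071 and not called. DDX21, a helicase of ribosomal RNA synthesis, and GNL3, the GTPase nucleostemin, kept their fall with the hairpins against Vector, at -0.42 and -0.39.

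Of the 15 genes of the small subunit processome and 40S maturation, 11 rose with the inhibitor, 11 fell and 1 rose with the hairpins, and 11 fell with overexpression. UTP20, a very large processome scaffold protein, had the largest fall with overexpression in the whole list. It was read at 17.7 and 16.2 TPM in the inhibitor libraries, 9.58 and 10.2 TPM in sh2, 9.39 and 8.71 TPM in sh1, 7.44 and 6.53 TPM with overexpression, 12.2 and 12.6 TPM in Vector and 12.6 and 13.5 TPM in shControl. The groups did not overlap between inhibitor, controls, hairpins and overexpression, in that falling order. The change was 0.36 ± 0.076 (SE, adjusted p = 0.00509) with the inhibitor, -0.42 ± 0.065 (SE, adjusted p = 6.49e-04) with the hairpins and -0.75 ± 0.076 (SE, adjusted p = 9.26e-05) with overexpression. HEATR1, another processome scaffold protein, had 0.32, -0.14 and -0.43, each past the threshold. Its hairpin call was lost in 4 alternative settings.

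RRP9, a protein of the U3 snoRNP at the heart of the processome, was read at 62.0 and 59.4 TPM in the inhibitor libraries, 40.4 and 37.0 TPM in sh2, 35.3 and 37.0 TPM in sh1, 26.1 and 26.1 TPM with overexpression, 38.2 and 34.8 TPM in Vector and 49.2 and 48.9 TPM in shControl. Its overexpression libraries were the lowest, and the hairpin libraries were below shControl but overlapped those of Vector. The change was 0.30 ± 0.056 (SE, adjusted p = 0.00246) with the inhibitor, -0.38 ± 0.048 (SE, adjusted p = 1.87e-04) with the hairpins and -0.47 ± 0.056 (SE, adjusted p = 2.32e-04) with overexpression, and against Vector its hairpin change was 0.034 and not called. RRP12, a HEAT-repeat protein of pre-ribosome maturation and export, was read at 53.9 and 55.5 TPM in the inhibitor libraries, 33.1 and 35.3 TPM in sh2, 33.5 and 32.4 TPM in sh1, 27.2 and 26.0 TPM with overexpression, 37.4 and 36.3 TPM in Vector and 38.3 and 39.7 TPM in shControl. The inhibitor libraries stood well above the controls, and the overexpression libraries were lowest. Its change was 0.48 ± 0.045 (SE, adjusted p = 5.79e-05) with the inhibitor, -0.21 ± 0.039 (SE, adjusted p = 0.00188) with the hairpins and -0.46 ± 0.045 (SE, adjusted p = 8.18e-05) with overexpression; against Vector the hairpin change was -0.13 and still called.

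NOB1, the endonuclease that makes the last cut of the small subunit RNA, and UBTF were the 2 members that rose with the hairpins against shControl. Against Vector 8 members were higher, and POLR1C had the largest change, 0.34. Against shControl POLR1C had 0.060 with both hairpins, not called, and 0.12 with sh1 alone, called higher. NOB1 was read at 151 and 155 TPM in the inhibitor libraries, 141 and 136 TPM in sh2, 140.3 and 137 TPM in sh1, 123 and 123 TPM with overexpression, 125 and 122 TPM in Vector and 130.4 and 129 TPM in shControl. The hairpin libraries lay above both kinds of control and below the inhibitor libraries. Its change was 0.24 ± 0.030 (SE, adjusted p = 3.39e-04) with the inhibitor and 0.10 ± 0.026 (SE, adjusted p = 0.0134) with the hairpins, and the hairpin call was lost when either shControl library was left out and with median-of-ratios scaling. DDX10, a helicase of the small subunit processome, was read at 30.8 and 30.8 TPM in the inhibitor libraries, 20.1 and 21.1 TPM in sh2, 17.8 and 16.7 TPM in sh1, 23.7 and 23.1 TPM with overexpression, 25.6 and 28.3 TPM in Vector and 27.5 and 28.3 TPM in shControl. All hairpin libraries were below every other library. Its change was -0.54 ± 0.048 (SE, adjusted p = 2.14e-05) with the hairpins, -0.49 against Vector, and -0.20 ± 0.055 (SE, adjusted p = 0.0211) with overexpression, a call lost when Vector replicate 2 or either overexpression library was left out. The inhibitor change of 0.14 was not called, although against Vector it was 0.19 and called higher.

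**Figure D3:**
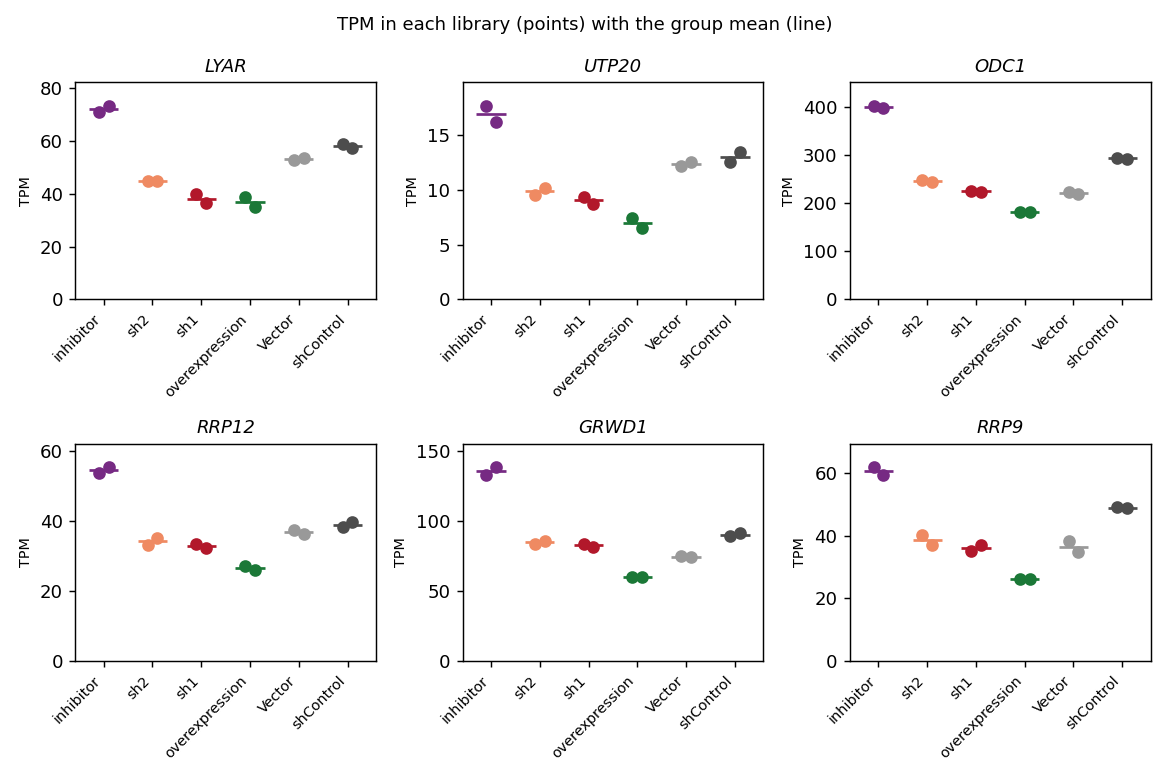
TPM (vertical axes, from 0) in each library (points) with the group mean (line) for the 6 genes with the largest difference between inhibitor and hairpin cells among those called in opposite directions against shControl. In all 6 panels the inhibitor points are the highest; for UTP20 they are 16.2 and 17.7 TPM, against 12.6 and 13.5 TPM in shControl.

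Of the 12 genes of 60S maturation, 8 rose with the inhibitor, 9 fell with the hairpins, and 7 fell with overexpression. GRWD1, a chaperone of the ribosomal protein RPL3, had the largest rise with the inhibitor in the list. It was read at 133 and 138 TPM in the inhibitor libraries, 83.7 and 85.4 TPM in sh2, 83.3 and 81.6 TPM in sh1, 59.8 and 60.1 TPM with overexpression, 74.7 and 73.9 TPM in Vector and 88.8 and 91.1 TPM in shControl. The inhibitor libraries were above all others, the overexpression libraries below all others, and the hairpin libraries between shControl and Vector. Its change was 0.59 ± 0.032 (SE, adjusted p = 2.19e-06) with the inhibitor, -0.11 ± 0.028 (SE, adjusted p = 0.0111) with the hairpins and -0.31 ± 0.032 (SE, adjusted p = 1.14e-04) with overexpression. Against Vector the hairpin libraries were higher instead, by 0.17, and the fall against shControl was not called without shControl replicate 2.

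RRS1, which brings the 5S ribonucleoprotein into the large subunit, was read at 125 and 123 TPM in the inhibitor libraries, 82.6 and 79.3 TPM in sh2, 80.7 and 75.0 TPM in sh1, 63.0 and 60.9 TPM with overexpression, 82.6 and 78.4 TPM in Vector and 83.5 and 83.9 TPM in shControl. Only the inhibitor libraries stood above, and only the overexpression libraries below, the range of the rest. Its change was 0.56 ± 0.044 (SE, adjusted p = 1.91e-05) with the inhibitor and -0.37 ± 0.044 (SE, adjusted p = 2.04e-04) with overexpression, and -0.076 ± 0.038 (SE, adjusted p = 0.129) with the hairpins did not pass. NOP2, a methyltransferase of the large subunit RNA, followed the same order of values at 0.47 with the inhibitor, -0.063 with the hairpins (not called) and -0.25 with overexpression. The PeBoW complex, which matures the large subunit RNA, consists of PES1, BOP1 and WDR12. PES1 had 0.24, -0.13 and -0.093, each past the threshold, whereas of these comparisons BOP1 passed only with the hairpins (-0.35) and WDR12 only with the inhibitor (0.29). The PES1 call with overexpression was lost in 6 alternative settings. Against Vector the hairpin change was 0.17 for PES1, called higher, 0.047 for BOP1, not called, and -0.12 for WDR12, called lower. The inhibitor change of BOP1 against Vector was 0.37 and called higher. MRTO4, a placeholder for a stalk protein of the large subunit, fell most of the 12 with overexpression (-0.43).

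The 2 enzymes of RNA modification outside the snoRNPs fell with the hairpins against shControl, and neither passed with the inhibitor against shControl or with overexpression against Vector. PUS7, a pseudouridine synthase, was read at 22.3 and 20.4 TPM in the inhibitor libraries, 14.9 and 16.3 TPM in sh2, 15.7 and 12.1 TPM in sh1, 17.1 and 17.1 TPM with overexpression, 20.3 and 20.6 TPM in Vector and 20.1 and 21.7 TPM in shControl. The hairpin libraries did not overlap those of any other group, and 1 sh1 library was the lowest of the 12. Its change was -0.48 ± 0.087 (SE, adjusted p = 0.00158) with the hairpins, 0.028 ± 0.10 (SE, adjusted p = 0.854) with the inhibitor and -0.24 ± 0.10 (SE, adjusted p = 0.0861) with overexpression. NAT10, the acetyltransferase that makes N4-acetylcytidine, fell by 0.28 with the hairpins, beside 0.12 with the inhibitor and 0.055 with overexpression. Against the other control, NAT10 was called higher with the inhibitor (0.21) and PUS7 lower with overexpression (-0.28), and both stayed lower with the hairpins.

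The 4 metabolic MYC targets all fell with the hairpins, 3 fell with overexpression and 3 rose with the inhibitor. ODC1, ornithine decarboxylase, the rate-limiting enzyme of polyamine synthesis, was read at 403 and 397 TPM in the inhibitor libraries, 249 and 244 TPM in sh2, 226 and 223 TPM in sh1, 181 and 181 TPM with overexpression, 224 and 219 TPM in Vector and 294 and 292 TPM in shControl. The inhibitor libraries were highest and the overexpression libraries lowest without overlap, the sh2 libraries lay between shControl and Vector, and the sh1 libraries overlapped those of Vector. Its change was 0.45 ± 0.024 (SE, adjusted p = 2.24e-06) with the inhibitor, -0.32 ± 0.021 (SE, adjusted p = 4.34e-06) with the hairpins and -0.29 ± 0.024 (SE, adjusted p = 3.49e-05) with overexpression; against Vector the hairpin change was 0.088 and called higher. SRM, the next enzyme of the pathway, had 0.27, -0.35 and -0.24, and its hairpin change against Vector was -0.0083 and not called. CAD, which starts pyrimidine synthesis, rose by 0.19 with the inhibitor and fell by 0.21 with the hairpins, and -0.043 with overexpression was not called. NME1 fell with the hairpins (-0.32) and with overexpression (-0.26) and had 0.037 with the inhibitor, which was not called. Against Vector its hairpin change was 0.17 and its inhibitor change 0.52, both called higher.

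Inhibitor and hairpin cells were then compared directly, a contrast that uses no control library. The groups differ in both the hairpin and the treatment. All 51 members had both inhibitor libraries above all 4 hairpin libraries, with the reverse for 0, beside 35% and 25.9% of all genes, and 50 passed the test as higher and 0 as lower, beside 30.9% and 21.6% of all genes; limma gave 51 higher and 0 lower at an unadjusted p under 0.05. The median difference was 0.46, against 0.036 over all genes. The difference was 0.79 ± 0.048 (SE, adjusted p = 1.77e-06) for LYAR, 0.78 ± 0.065 (SE, adjusted p = 1.06e-05) for UTP20 and 0.76 ± 0.021 (SE, adjusted p = 2.54e-08) for ODC1, the largest of the list. Next came GRWD1 (0.69), RRP12 (0.69), RRP9 (0.68) and DDX10 (0.68). NOB1 had the smallest called difference, 0.14 ± 0.026 (SE, adjusted p = 0.00165), and with quantile scaling it was 0.034 and not called. PWP2, the least abundant member, had 0.32 ± 0.13 (SE, adjusted p = 0.0678) and was not called.

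**Figure D4:**
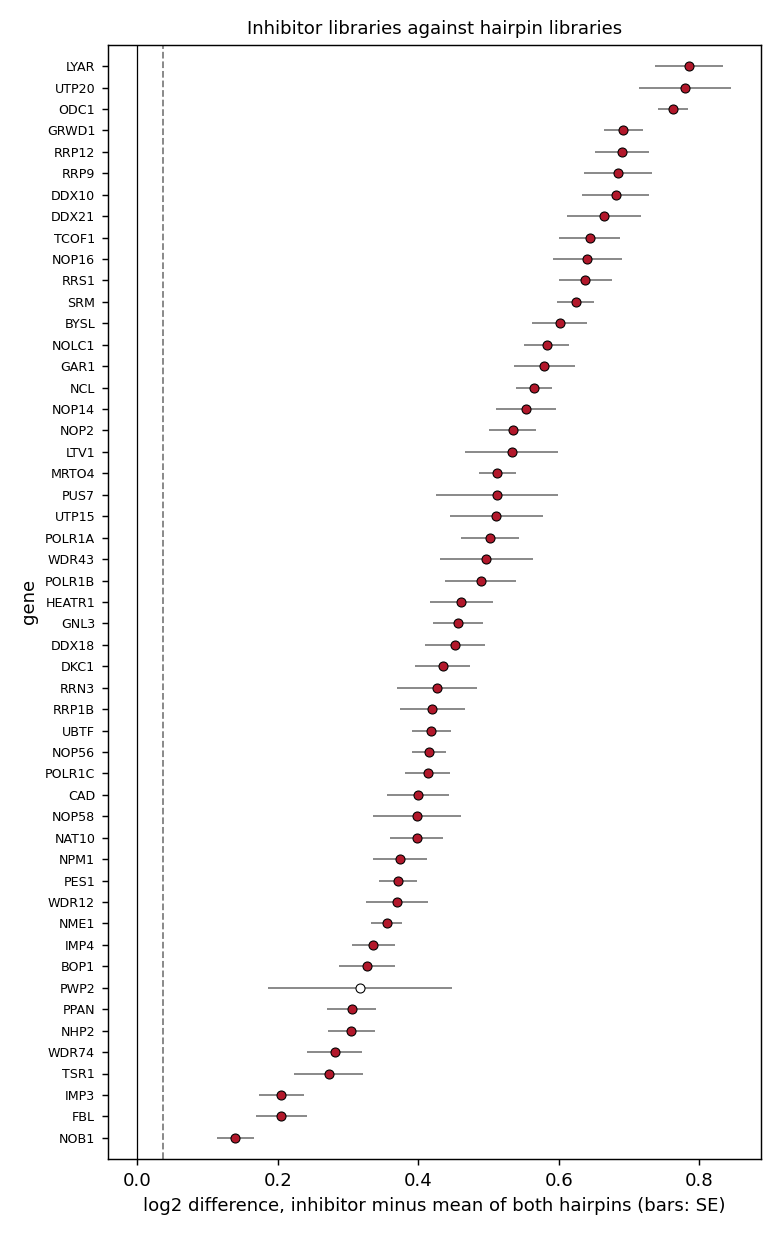
Difference between inhibitor cells and the mean of both hairpin groups for each of the 51 genes (vertical axis, sorted) on the log2(TPM + 1) scale (horizontal axis); bars are SE, red points passed adjusted p < 0.05, and the dashed line marks the median of all tested genes. All 51 points lie above 0, from NOB1 at 0.14 to LYAR at 0.79.

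The hairpin and overexpression comparisons have separate controls. 30 members were lower in both, which is 88.2% of the 34 lower with overexpression and 76.9% of the 39 lower with the hairpins. Over all tested genes 649 were lower in both (5.1%), which is 49.6% of those lower with overexpression and 25.3% of those lower with the hairpins. With the controls exchanged, 16 members were lower in both, beside 3.7% of all genes. The size of the change was tested between them as the hairpin effect minus the overexpression effect, and 8 members were called higher and 8 lower, beside 11.4% and 18.5% of all genes. The median was -0.027. The 8 higher ones (UBTF, UTP20, HEATR1, RRP12, RRS1, NOP2, MRTO4 and GRWD1) had a hairpin effect less negative than the overexpression effect, or opposite to it; for UTP20 the difference was 0.32 ± 0.10 (SE, adjusted p = 0.036). The 8 lower ones (TCOF1, FBL, NOP56, NHP2, DDX10, BOP1, DDX18 and NAT10) had the more negative hairpin effect. For TCOF1 the difference was -0.52 ± 0.066 (SE, adjusted p = 3.95e-04). With the controls exchanged, the order turned for FBL, NOP56, NHP2 and BOP1. Their hairpin changes were then -0.18, 0.041, 0.014 and 0.047, and their overexpression changes -0.29, -0.44, -0.17 and -0.48. The other lower ones and the 8 higher ones kept their order, and no difference was tested with the controls exchanged.

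The 2 hairpins were compared directly. In sh2 against sh1, 2 members were higher and 0 lower, beside 1.16% and 0.385% of all genes, and limma gave 21 higher and 1 lower (POLR1C) at an unadjusted p under 0.05. The median difference was 0.097, against 0.031 over all genes. They were NOP56, with 0.15 ± 0.028 (SE, adjusted p = 0.0421), and ODC1, with 0.13 ± 0.024 (SE, adjusted p = 0.0383), and in the library values given above both sh2 libraries exceed both sh1 libraries. Each call was lost when any 1 of the 4 hairpin libraries was left out. All sh2 libraries exceeded all sh1 libraries for 31 members and were below them for 3, beside 31.2% and 16.7% of all genes. STK17B itself was 14.6 TPM in sh2 and 11.8 TPM in sh1, a difference of 0.29 that was not called.

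Other genes of the pathway were counted in the same comparisons. Over all genes, 28% rose and 11.8% fell with the inhibitor. With the hairpins 26.2% rose and 20.2% fell, and with overexpression 26.6% rose and 10.3% fell. Among 128 other ribosome assembly factors, all tested, 90 rose and 2 fell with the inhibitor (median 0.26), 10 rose and 61 fell with the hairpins (median -0.12), and 7 rose and 43 fell with overexpression (median -0.11). The 43 became 81 with median-of-ratios and 77 with quantile scaling (median -0.22 and -0.21). The controls differed here too: in Vector against shControl 7 of the 128 were higher and 37 lower (median -0.081). Among all genes 21.4% were higher and 7.86% lower in that comparison. The hairpin counts of the 128 are against shControl and were not made against Vector. Against the hairpins, 114 were higher and 2 lower in inhibitor cells (median 0.40), beside 30.9% and 21.6% of all genes. Of the 40 small subunit factors among them, 34 rose with the inhibitor. UTP14A, a processome protein, averaged 59.4 ± 2.09 TPM in inhibitor cells and 38.7 ± 0.98 TPM in shControl (SD, n = 2 each), a change of 0.61, and NOL6, a processome scaffold, fell with both the hairpins (-0.40) and overexpression (-0.43).

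RPP40, a subunit of the RNases P and MRP, changed most with the inhibitor, at 22.5 ± 1.46 TPM against 10.5 ± 0.80 TPM in shControl (SD, n = 2 each), a change of 1.03. It also rose with the hairpins (0.36). Among other polymerase I genes CD3EAP, a subunit of the enzyme, fell by 0.66 with the hairpins. PNO1, a small subunit factor, fell by 0.52 with overexpression. In nucleotide and polyamine synthesis, 9 of 24 genes rose and 2 fell with the inhibitor, beside 28% and 11.8% of all genes. With the hairpins 1 rose and 15 fell, beside 26.2% and 20.2% of all genes. In Vector against shControl 2 were higher and 9 lower, beside 21.4% and 7.86% of all genes. With overexpression 6 rose and 7 fell, beside 26.6% and 10.3% of all genes. IMPDH2, the rate-limiting enzyme of guanine nucleotide synthesis, averaged 138 ± 2.06 TPM in sh2, 119 ± 1.66 TPM in sh1 and 199 ± 0.71 TPM in shControl (SD, n = 2 each), a hairpin change of -0.63.

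The protein genes of the finished ribosome gave other counts. Over all genes, 28% rose and 11.8% fell with the inhibitor. With the hairpins 26.2% rose and 20.2% fell, and with overexpression 26.6% rose and 10.3% fell. Of 79 cytosolic ribosomal protein genes, 57 fell and 0 rose with the inhibitor (median -0.13; 61 and 0 at an unadjusted p under 0.05 in limma), 18 rose and 19 fell with the hairpins (median near 0, at 0.00074), and 1 rose and 43 fell with overexpression (median -0.12). With quantile scaling the inhibitor counts became 28 lower and 4 higher. They took 27.9 ± 0.08% of all TPM in inhibitor cells, 30.4 ± 0.16% in sh2, 31.1 ± 0.63% in sh1, 27.6 ± 0.02% with overexpression, 30.2 ± 0.18% in Vector and 30.8 ± 0.23% in shControl (mean ± SD, n = 2 each). Because TPM sum to a constant, a lower share for these genes leaves more for all others, and its part in the members' changes was not tested. Of 75 mitochondrial ribosomal protein genes tested, 47 rose with the inhibitor (median 0.20), 10 rose and 23 fell with the hairpins (median -0.032), and 36 fell with overexpression (median -0.15). With quantile scaling the inhibitor counts became 24 higher and 4 lower (median 0.090), and with median-of-ratios scaling 54 fell with overexpression. In Vector against shControl 2 of the mitochondrial genes were higher and 34 lower (median -0.13), a larger median than with the hairpins. Of the cytosolic genes 13 were higher and 17 lower in that comparison (median -0.0048). Among all genes it gave 21.4% higher and 7.86% lower.

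MYC was not ordered as its targets were. It averaged 494 ± 2.3 TPM in inhibitor cells, 395 ± 3.54 TPM in sh2, 354 ± 13.1 TPM in sh1, 529.9 ± 5.25 TPM with overexpression, 509 ± 23.4 TPM in Vector and 481 ± 15.2 TPM in shControl (mean ± SD, n = 2 each). It fell with the hairpins (-0.36 ± 0.033 (SE, adjusted p = 2.39e-05)), whereas 0.039 ± 0.038 (SE, adjusted p = 0.454) with the inhibitor and 0.058 ± 0.038 (SE, adjusted p = 0.259) with overexpression did not pass. Against the hairpins it was higher in inhibitor cells (0.40 ± 0.033 (SE, adjusted p = 8.81e-06)). MAX, its dimer partner, fell with the hairpins at the edge of the threshold (-0.24 ± 0.089 (SE, adjusted p = 0.0492)), with 0.053 and 0.0056 not called with the inhibitor and overexpression.

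Repressors that compete with MYC for MAX moved in several comparisons. MXD4 averaged 15.8 ± 1.06 TPM in inhibitor cells, 20.9 ± 0.47 TPM in sh2, 23.7 ± 0.97 TPM in sh1, 29.9 ± 2.41 TPM with overexpression, 17.9 ± 0.41 TPM in Vector and 12.1 ± 1.28 TPM in shControl (SD, n = 2 each). It rose with the inhibitor (0.37), the hairpins (0.84) and overexpression (0.71), and its Vector level was above that of shControl as well (0.54). Its mean in inhibitor cells was therefore above that of shControl but below that of Vector. MXI1 fell with the inhibitor (-0.59), rose with overexpression (0.81) and rose slightly with the hairpins against shControl (0.14). It averaged 38.4 ± 0.59 TPM in sh2, 38.7 ± 2.63 TPM in sh1, 38.3 ± 0.40 TPM in Vector and 35.0 ± 1.37 TPM in shControl (SD, n = 2 each). Its hairpin means thus lay close to that of Vector. These values stand beside the members' own, and their part in the members' changes was not tested.

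**Figure D5:**
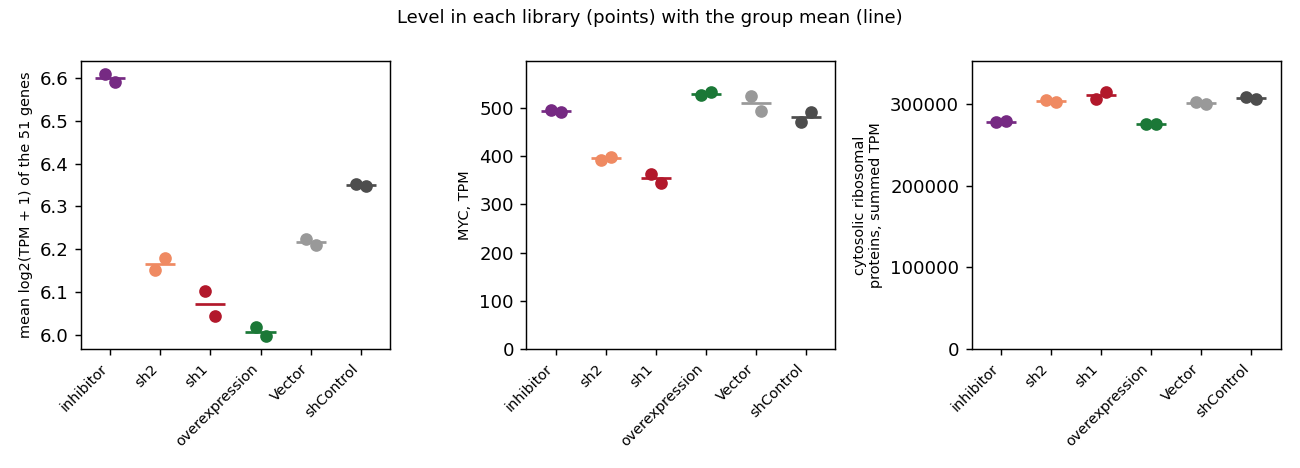
Value in each library (points) with the group mean (line) of, from left to right, the mean log2(TPM + 1) of the 51 genes, MYC in TPM and the summed TPM of the cytosolic ribosomal proteins; the left axis does not start at 0. The mean member level is highest in inhibitor cells at 6.60 and lowest with overexpression at 6.01, while MYC is lowest in sh1 and highest with overexpression.

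The members were also split by whether their promoter holds CACGTG; a match of letters is a description and not evidence of binding. BYSL, a small subunit factor whose promoter is printed above, had 0.30 with the inhibitor, -0.30 with the hairpins (-0.075 against Vector, not called) and -0.24 with overexpression. The 16 genes with the motif had a median change of 0.28 with the inhibitor, against 0.25 for the 27 without it. With the hairpins against shControl the medians were -0.29 and -0.16, and with overexpression against Vector -0.24 and -0.20. The hairpin medians of the 2 sets were not computed against Vector. Over all members the hairpin median was -0.21 against shControl but -0.081 against Vector. The gap between the sets with the hairpins is therefore shown for shControl only and may depend on that control. Between inhibitor and hairpin cells the medians were 0.51 with the motif and 0.43 without it. These are descriptions of the members, and the difference between the 2 sets was not tested.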

How the data were processed

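The TPM of each gene in each library are as deposited by the authors and come from poly(A)-selected, stranded libraries; per the submitters' processing notes the tools were HISAT, Bowtie2 2.3.4.3, RSEM 1.3.1 and DESeq2 1.4.5 on GRCh38.p13, with their roles not given. No unmapped sample columns were left. From the TPM, log2(TPM + 1) was fitted with limma 3.58.1 in R 4.3.3 (group means of all 6 groups, empirical Bayes with a trend, Benjamini-Hochberg adjustment over 12731 genes). The members and gene lists were chosen with earlier results of these data known. Given in full per library are the members with the 4 largest called changes in each direction per comparison, those called between the hairpins, and up to 6 called in opposite directions with hairpins and inhibitor; other pathway genes named are among the 2 largest called per list and direction with a mean of at least 5 TPM. The method was tested on simulated data. Replicates within a group correlated at 0.991 to 0.993 across genes. Replicate numbers did not pair the libraries (r between deviations from -0.10 to 0.14).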

Additional observations from a re-analysis of the deposited data

Results flagged for a closer look

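Both genes that passed the direct test between the hairpins are given here again because the same target was changed in both groups. NOP56 was higher in sh2 than in sh1 by 0.15 on the log2(TPM + 1) scale, at 214 and 217 TPM in sh2 and 193 and 196 TPM in sh1, and ODC1 was higher by 0.13, at 249 and 244 TPM in sh2 and 226 and 223 TPM in sh1 (limma, adjusted p = 0.0421 and 0.0383, n = 2 each). The direction held in 2 of 2 sh2 libraries for both, which adds no support because the same libraries picked the genes. The NOP56 call was lost in 10 alternative settings and the ODC1 call in 7. STK17B was 14.6 ± 0.14 TPM in sh2 and 11.8 ± 1.26 TPM in sh1 (SD, n = 2 each), and its part in these differences was not tested.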

How the results depend on the processing

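Alternative settings changed the pseudocount, the filter, the libraries fitted, the scaling, the variance model, the control columns and the libraries left out. With the control columns exchanged, the hairpin counts became 20 lower and 8 higher. NOP56 (0.041), NHP2 (0.014), RRP9 (0.034), IMP3 (0.17), PPAN (0.062), BOP1 (0.047), PES1 (0.17), WDR74 (0.041), MRTO4 (0.057), GRWD1 (0.17), ODC1 (0.088) and NME1 (0.17) then turned positive, as did BOP1 with the inhibitor (0.37), and NHP2 with overexpression turned negative (-0.17). Quantile scaling turned GNL3 with the inhibitor to -0.0084. Of the 37 members higher with the inhibitor, 10 more were no longer called with quantile scaling. With median-of-ratios scaling 6 of the 37 were no longer called. Members lower with the inhibitor, 0 as reported, numbered 1 with a pseudocount of 0.1, a filter at 5 TPM, only the groups compared, median-of-ratios scaling or robust variances, and 3 with quantile scaling. Members higher with the hairpins numbered 1 with median-of-ratios scaling. Members higher in sh2 than sh1, 2 as reported, numbered 4 with a filter at 5 TPM, 1 with no filter or quantile scaling, and 0 with only the groups compared, median-of-ratios scaling or no trend. Members lower in Vector than shControl rose to 38 with median-of-ratios scaling.

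Leaving out 1 library at a time gave 30 to 34 members higher with the inhibitor, 33 to 41 lower and 1 to 2 higher with the hairpins, 24 to 29 lower and 0 to 1 higher with overexpression, 50 to 51 higher in inhibitor than hairpin cells, 0 to 1 higher in sh2 than sh1, and 14 to 18 lower in Vector than shControl. The single member higher with overexpression appeared without Vector replicate 1. A lone library is then assumed to vary like the other groups. With the replicate block, which rests on numbers that do not pair the libraries, 1 member was higher in sh2 than sh1. The cause of these shifts was not tested.

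With median-of-ratios and quantile scaling, the share of higher genes among all called genes was 55.9% and 51.9% with the inhibitor, against 70.3% as reported. It was 48.7% and 47.7% with the hairpins (56.4% as reported), 43.1% and 46.3% with overexpression (72.1% as reported), 52.6% and 54.1% between the hairpins (75.1%) and 42.9% and 48.4% for Vector against shControl (73.1%). The largest shift of the median of all genes was with quantile scaling, to -0.022 with overexpression and -0.020 for Vector against shControl. The median of the members minus that of all genes was 0.17 and 0.13 with the inhibitor (0.17 as reported) and -0.30 and -0.24 with overexpression (-0.29 as reported).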
